A study of Bos taurus with 9 samples.

Results

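The genes described here are 40 nucleolar ribosome biogenesis factors, out of 20679 genes in a table of read counts from 3D-cultured bovine uterine gland fragments. They were chosen by name from their known roles, with earlier results of these data already known. Each of the 40 was found in the table by its symbol. The fragments were glands isolated enzymatically from abattoir uteri, and RNA was taken on day 5 of culture. CYST fragments were kept in Matrigel, a basement membrane gel, without epidermal growth factor (EGF), and are named for the hollow spheres they formed. UG-LIKE fragments were kept in Matrigel with EGF and formed uterine gland-like structures, and the same 3 libraries are called MAT where they are set against MAT + COL, which had EGF and Matrigel supplemented with type I collagen. The basal medium, which contained insulin and transferrin, was shared by all groups. Each group had 3 libraries, and breed and age are not given in the sources used here.

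Ribosomes are assembled largely in the nucleolus. RNA polymerase I transcribes the large ribosomal RNA precursor, small nucleolar ribonucleoproteins (snoRNPs) guide its chemical modification, and ordered sets of assembly factors fold and cut it into the small and large subunits. The demand for these factors is high in growing and dividing cells, and the transcription factor MYC is known to promote the expression of many of them.

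Total counts ranged from 6568968 to 17948600 per library, and the 40 genes together took between 0.205% and 0.483% of the counts. The epithelial markers were abundant in each library, with a summed TPM (reads scaled for gene length and library total) of 17808 to 19267 in CYST, 28668 to 44517 in UG-LIKE and 29682 to 39591 in MAT + COL. The fibroblast or stroma markers were also detected, at a summed 2225 to 4798 TPM in CYST, 1191 to 3742 in UG-LIKE and 2197 to 4249 in MAT + COL. Endothelial, immune and smooth muscle markers each stayed under 84 TPM in sum, and CD79A of the immune list was at 0 in every library. The part of these other cells in the results below was not tested, and in bulk RNA fewer cells of a type and less RNA per cell cannot be told apart. One CYST library stood apart from the other two: in CYST replicate 3 the ferritin gene FTH1 took 12.0% of all TPM and mitochondrial genes took 1.40%, the lowest share of the 9 libraries.

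Without EGF the 40 factors were more abundant. Their summed level was 4140, 3748 and 2785 TPM in CYST replicates 1, 2 and 3, 2315, 2001 and 2007 TPM in UG-LIKE replicates 1, 2 and 3, and 2331, 1819 and 2122 TPM in MAT + COL replicates 1, 2 and 3. Every CYST library lay above every library with EGF on this sum. Levels within the list spanned a wide range: in CYST the mean TPM ran from 7.37 for UTP20 to 344 for NPM1, with a median of 65.0 against 16.3 for all genes tested.

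To compare UG-LIKE structures with cysts, counts of 12074 genes were tested by edgeR's quasi-likelihood test with Benjamini-Hochberg adjustment. All 40 factors had a Log2FC below 0, with a median of -0.76, whereas the median of all genes tested was 0.01 and 49.2% of them lay below 0. At an adjusted p under 0.05, 5 of the 40 fell (NOP56, DKC1, EMG1, LTV1 and NOLC1) and 0 rose, beside 0.944% of all genes tested that fell and 0.845% that rose. At an unadjusted p under 0.05, 29 of the 40 were lower, against 11.3% of all genes tested. Each of the 5 also met the paper's criteria for DEGs. These are an adjusted p under 0.05, a Log2FC below -1 and a TPM above 1, taken here as in every library. Of all genes tested, 0.729% met them in the lower direction. The paper applied its criteria to its own fit of this comparison and reported more downregulated genes than the edgeR fit here. It listed ribosome biogenesis in eukaryotes among the pathways of those genes. For 24 of the 40 every UG-LIKE library had a lower TPM than every CYST library, which held for 11.8% of all genes tested. Replicate numbers here are those of the sample titles, and the library names carry partly different numbers. The labels do not say that same-numbered libraries belong together. Over all genes tested these libraries deviated together from their group means (r = 0.329 to 0.437). Over the 40, r was 0.17, 0.43 and 0.01 for replicates 1, 2 and 3. With the replicate number as a block 21 of the 40 fell, against 5.67% of all genes tested. With it 9 met the criteria for DEGs, against 3.08%.

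The number that fell depended on single libraries. Leaving out CYST replicate 1, CYST replicate 2 or any one of the 3 UG-LIKE libraries left 0 of the 40 past the threshold. Leaving out CYST replicate 3 left 5. Over all genes tested, 114 fell with no library left out. That number was 4, 4 and 118 without CYST replicates 1, 2 and 3. It was 5, 17 and 38 without UG-LIKE replicates 1, 2 and 3. With the block, leaving out pair 1, 2 or 3 gave 0, 6 or 27 of the 40. Over all genes tested the same fits gave 14, 323 or 935 that fell, against 685 with no pair left out. The median Log2FC of the 40 stayed between -0.86 and -0.63 over the same fits that left out a library or a pair.

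**Figure D1:**
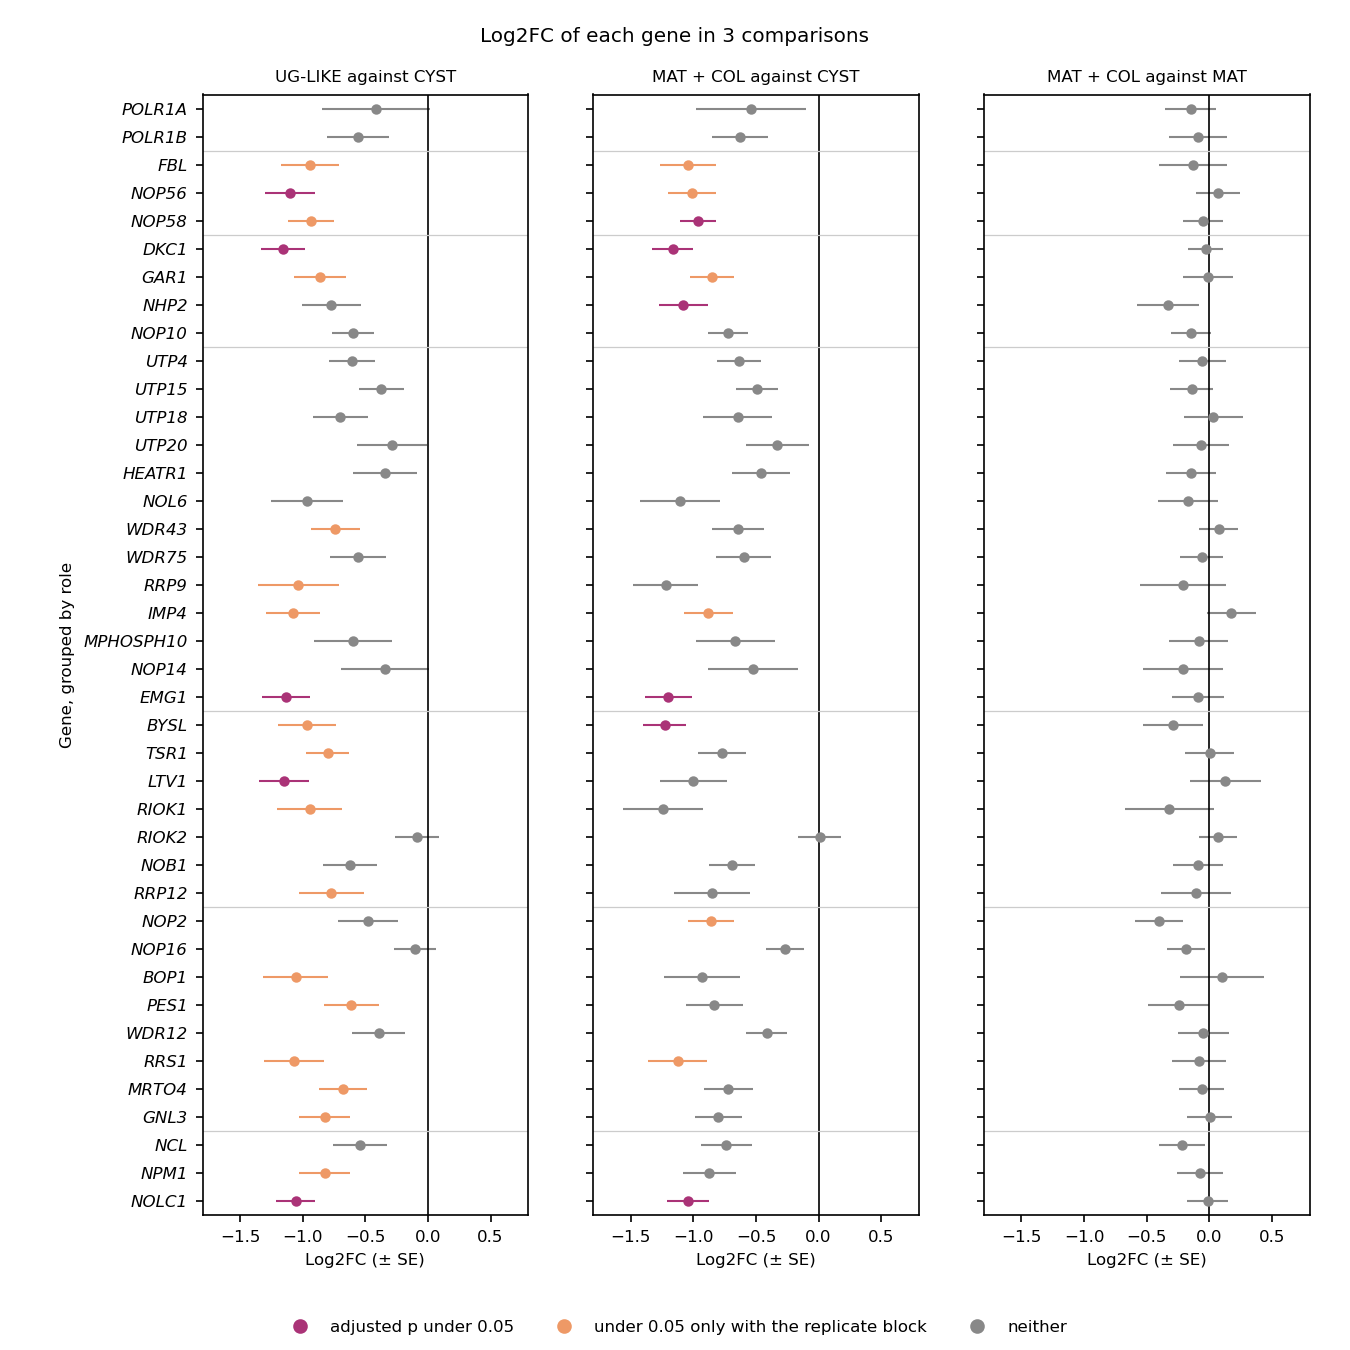
Log2FC with its SE for each of the 40 factors (rows, grouped by role, lines between roles) in the comparisons of UG-LIKE with CYST, MAT + COL with CYST and MAT + COL with MAT, from edgeR without the replicate block. Points of both comparisons with CYST lie left of 0 except RIOK2 at 0.01 in MAT + COL, and points of MAT + COL against MAT scatter around 0.

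The 3 core proteins of box C/D snoRNPs had Log2FC from -1.10 to -0.93. NOP56, a scaffold of these particles, which guide ribose methylation, had 386, 315 and 245 TPM in CYST and 170, 154 and 119 TPM in UG-LIKE. The groups did not overlap, and NOP56 fell with a Log2FC of -1.10 (SE 0.20, adjusted p = 0.045). Its partner NOP58 had 216, 222 and 160 TPM in CYST and 105, 124 and 84.7 TPM in UG-LIKE, and its Log2FC of -0.93 (SE 0.18) just missed the threshold (adjusted p = 0.0503) and passed it with the block (adjusted p = 0.0169). FBL, the methyltransferase of the same particle, averaged 174 ± 28.2 TPM in CYST and 91.0 ± 20.3 TPM in UG-LIKE (SD, n = 3 each), with a Log2FC of -0.94 (adjusted p = 0.0722, and 0.0198 with the block).

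Box H/ACA snoRNPs guide the conversion of uridine to pseudouridine, and DKC1 is their catalytic subunit. DKC1 had 206, 179 and 133 TPM in CYST and 84.7, 80.8 and 67.0 TPM in UG-LIKE, and it fell with a Log2FC of -1.16 (SE 0.18, adjusted p = 0.0323), the most negative value among the 40. The other 3 core proteins also had non-overlapping groups. GAR1 averaged 117 ± 8.82 TPM in CYST and 65.3 ± 12.8 TPM in UG-LIKE (Log2FC -0.86, adjusted p = 0.0716, and 0.0293 with the block). NHP2 averaged 133 ± 13.8 and 79.0 ± 22.1 TPM (SD, n = 3 each), and its Log2FC of -0.77 did not pass in either fit (adjusted p = 0.116, and 0.0591 with the block). NOP10, the smallest of these proteins, had 54.2, 51.8 and 42.8 TPM in CYST and 36.1, 32.4 and 30.6 TPM in UG-LIKE, and its Log2FC of -0.60 was smaller in size than the median of the 40 (adjusted p = 0.101, and 0.0621 with the block). It is described here after its values were seen.

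The small subunit processome, the large particle that forms on the nascent precursor, gave 13 of the 40 genes, whose Log2FC lay between -1.13 and -0.29 around a median of -0.61. EMG1, which methylates the small subunit RNA, was the member of this role that fell without the block. It had 103, 96.5 and 92.0 TPM in CYST and 45.4, 40.5 and 48.2 TPM in UG-LIKE, a Log2FC of -1.13 (SE 0.19, adjusted p = 0.0403) with no overlap between groups. IMP4, a component of the U3 particle, averaged 49.2 ± 11.9 and 23.4 ± 4.56 TPM (SD, n = 3 each), with a Log2FC of -1.08 (adjusted p = 0.0524, and 0.0128 with the block). With the block, WDR43 and RRP9 fell as well. NOP14, the member of this role with the largest p, had 40.1, 24.7 and 14.4 TPM in CYST and 23.4, 14.1 and 23.6 TPM in UG-LIKE, so that the groups overlapped (Log2FC -0.35, SE 0.35, adjusted p = 0.631).

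Of the 7 factors that act late in small subunit maturation, LTV1, an assembly and export factor, fell. LTV1 had 55.6, 62.4 and 41.0 TPM in CYST and 28.6, 21.9 and 21.2 TPM in UG-LIKE, with a Log2FC of -1.15 (SE 0.20, adjusted p = 0.0414). TSR1, a GTPase-like factor of the same particle, averaged 74.7 ± 16.6 and 42.7 ± 2.04 TPM (Log2FC -0.80, adjusted p = 0.0589, and 0.0339 with the block; SD, n = 3 each). Its kinase RIOK2 had the Log2FC nearest to 0 of the 40, at -0.09 (SE 0.18, adjusted p = 0.83). RIOK2 had 61.2, 77.8 and 50.6 TPM in CYST and 60.6, 61.7 and 56.1 TPM in UG-LIKE, and the UG-LIKE values lay inside the CYST range. The related kinase RIOK1, described here after its values were seen, averaged 19.8 ± 3.39 and 10.3 ± 1.94 TPM (SD, n = 3 each) and passed only with the block (Log2FC -0.94, adjusted p = 0.0961, and 0.0444 with the block).

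In large subunit assembly 0 of 8 genes fell without the block and 5 fell with it. RRS1, which brings 5S particle components to the precursor, averaged 66.8 ± 20.8 TPM in CYST and 31.6 ± 4.35 TPM in UG-LIKE (SD, n = 3 each), with a Log2FC of -1.07 (adjusted p = 0.0621, and 0.0212 with the block). BOP1, which acts with PES1 and WDR12 in a complex for large subunit RNA processing, had 14.3, 13.0 and 9.69 TPM in CYST and 6.21, 4.85 and 6.69 TPM in UG-LIKE (Log2FC -1.06, adjusted p = 0.0727, and 0.0382 with the block). Its partners PES1 and WDR12 had Log2FC of -0.61 (SE 0.22) and -0.39 (SE 0.21), and differences among the 3 were not tested. NOP16 had 160, 147 and 134 TPM in CYST and 149, 128 and 138 TPM in UG-LIKE, overlapping groups with a Log2FC of -0.11 (SE 0.17, adjusted p = 0.781).

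The nucleolar chaperones included the most abundant of the 40. NPM1, nucleophosmin, had 440, 314 and 277 TPM in CYST and 196, 182 and 205 TPM in UG-LIKE, with a Log2FC of -0.82 (SE 0.20, adjusted p = 0.0742, and 0.0326 with the block). NPM1 has processed copies in mammalian genomes, so its reads may be divided among them. NOLC1, which accompanies snoRNPs, fell with the smallest p of the 40, from 118, 121 and 92.0 TPM in CYST to 57.6, 50.6 and 51.6 TPM in UG-LIKE (Log2FC -1.06, SE 0.16, adjusted p = 0.0285). NCL, nucleolin, had 296, 221 and 167 TPM in CYST and 148, 142 and 175 TPM in UG-LIKE, where the groups overlapped at 1 library (Log2FC -0.55, adjusted p = 0.204).

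RNA polymerase I subunits gave smaller and less certain values. POLR1A, the largest subunit, had 17.6, 14.8 and 3.87 TPM in CYST and 9.68, 7.77 and 8.86 TPM in UG-LIKE, so that the lowest value of both groups was in CYST (Log2FC -0.41, SE 0.43, adjusted p = 0.642). POLR1B had 55.5, 58.3 and 31.0 TPM in CYST and 42.7, 29.7 and 25.2 TPM in UG-LIKE (Log2FC -0.56, SE 0.25, adjusted p = 0.252, and 0.0875 with the block).

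**Figure D2:**
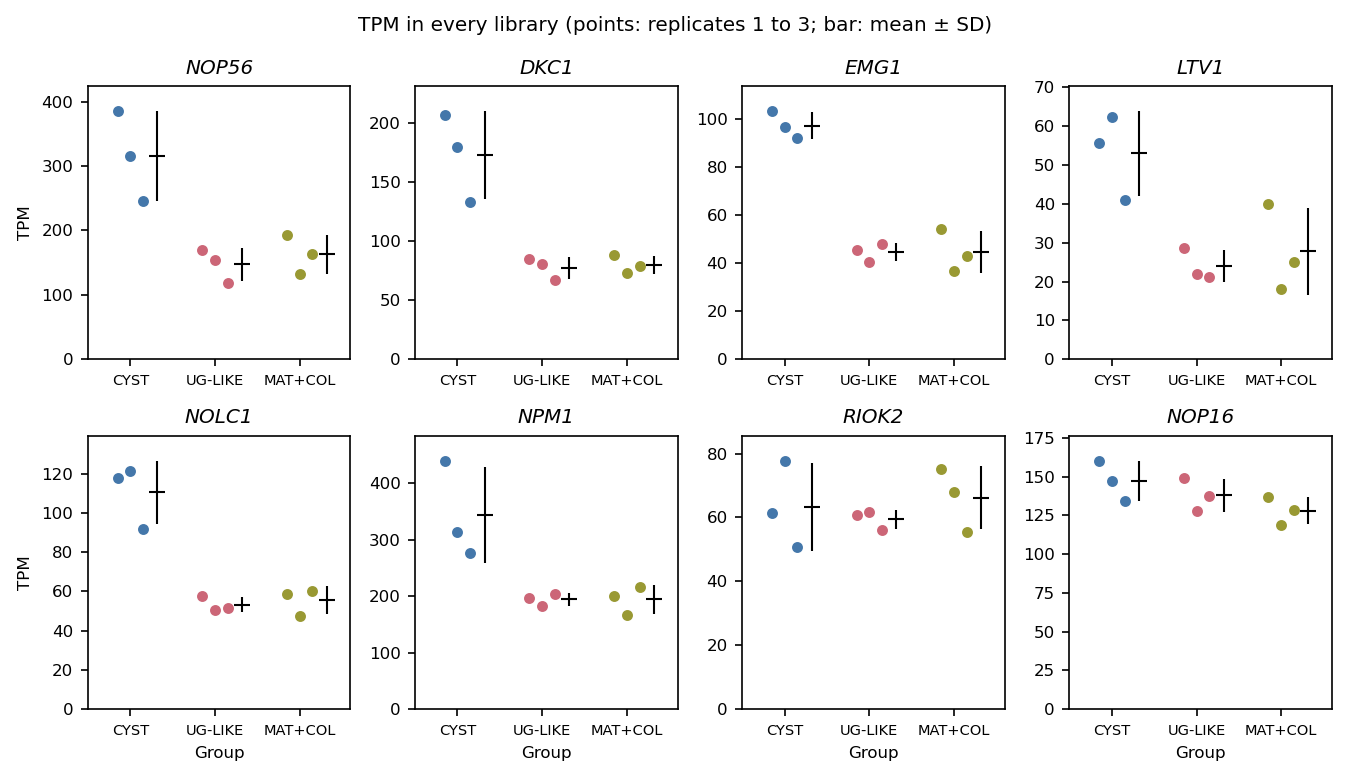
TPM of 8 factors in each library by group (points are replicates 1 to 3 from left to right, bars are mean ± SD). CYST lies above both groups with EGF for NOP56, DKC1, EMG1, LTV1, NOLC1 and NPM1, and the groups overlap for RIOK2 and NOP16.

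Log2 CPM here is counts scaled to library size and by edgeR's TMM normalization factors over all 9 libraries, on a log2 scale. Within same-numbered pairs of libraries, UG-LIKE was lower than CYST in log2 CPM for 39 of the 40 in pair 1. It was lower for 40 in pair 2 and 35 in pair 3. The median differences were -0.80, -0.88 and -0.58. In all 3 pairs 34 of the 40 were lower, against 26.3% of all genes tested. The 5 genes that were higher in UG-LIKE in pair 3 were POLR1A (1.00), NOP14 (0.53), UTP20 (0.38), HEATR1 (0.27) and MPHOSPH10 (0.06), named after their values were seen.

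CYST replicate 3 held the lowest TPM of its group for 39 of the 40, on a scale where FTH1 took 12.0% of that library. In log2 CPM it was instead the highest CYST library for GAR1, NHP2, UTP15, EMG1, NOP16 and WDR12. EMG1, for example, had log2 CPM of 5.98, 5.84 and 6.11 in CYST replicates 1, 2 and 3. This order can depend on the TMM factors. By counts over the library total alone, CYST replicate 1 was the highest for EMG1. It had 553 of 8424028 counts, against 634 of 9958018 in CYST replicate 3. The position of CYST replicate 3 varied with the length of the gene model, which was recovered from the ratio of counts to TPM. Lengths ran from 759 bases for NHP2 to 8647 bases for UTP20. Over the 40 genes, the log2 CPM of CYST replicate 3 minus the mean of CYST replicates 1 and 2 had a Pearson correlation of -0.51 with log2 length, against -0.16 over 12024 genes tested with a length. The same correlation was -0.05 over the 40 for CYST replicate 1 minus CYST replicate 2. POLR1A, HEATR1 and UTP20, the 3 longest models, were lower in CYST replicate 3 by 1.73, 0.67 and 0.63 on this scale. Genes of 1 library share its depth and RNA, so these correlations are descriptions, and the part of transcript length in the comparison was not tested. The Log2FC of UG-LIKE against CYST had a correlation of 0.15 with log2 length over the 40.

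**Figure D3:**
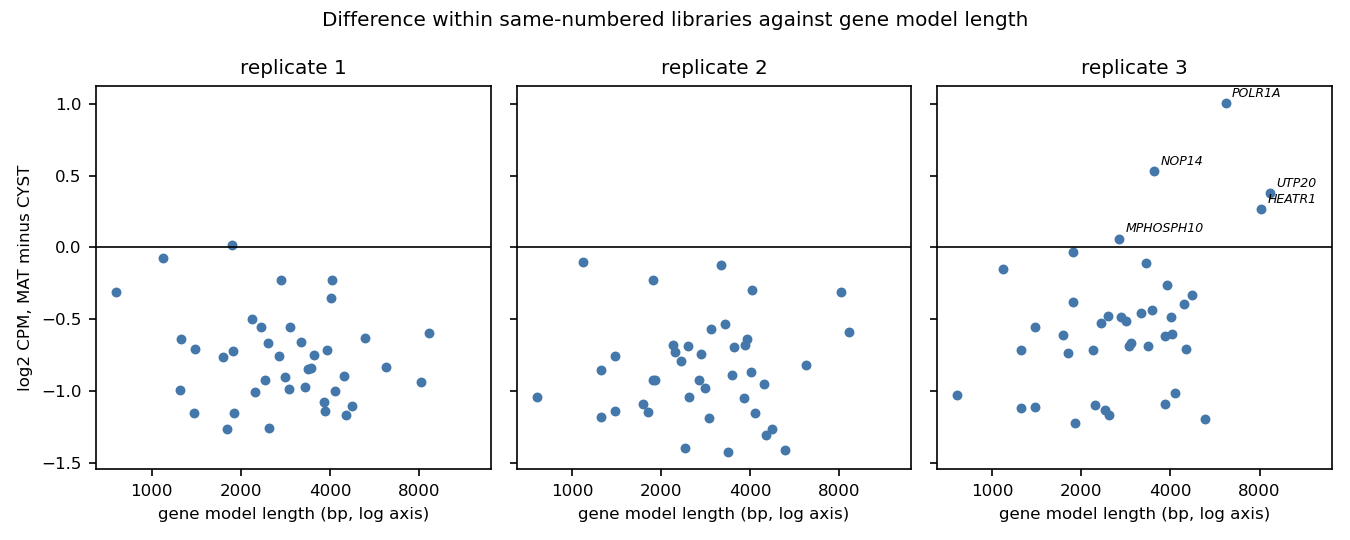
Difference in log2 CPM, MAT minus CYST, within each same-numbered pair for the 40 factors (points) against the length of the gene model on a log axis. Nearly all points of replicates 1 and 2 lie below 0, and in replicate 3 the 5 named points lie above it, POLR1A highest at 1.00.

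In structures grown with both EGF and collagen I the factors were again lower than in cysts. This comparison uses the same 3 CYST libraries, so it is not independent of the one above. The Log2FC of MAT + COL against CYST was below 0 for 39 of the 40, against 47.0% of all 12509 genes tested. The median was -0.82 against 0.04 for all genes tested. At an adjusted p under 0.05, 6 fell (NOP58, DKC1, NHP2, EMG1, BYSL and NOLC1) and 0 rose, beside 0.815% of all genes tested that fell and 0.672% that rose. With the block 12 fell, against 2.58% of all genes tested. Groups did not overlap for 25 of the 40, against 10.3%. Leaving out any one of CYST replicate 1, CYST replicate 2, MAT + COL replicate 1 or MAT + COL replicate 2 left 0 past the threshold. Leaving out CYST replicate 3 left 3. Over all genes tested, 102 fell with no library left out. That number was 4, 4 and 54 without CYST replicates 1, 2 and 3. It was 3 without MAT + COL replicate 1 and 3 without MAT + COL replicate 2. With the block, leaving out pair 1 or pair 2 left 0 of the 40 and leaving out pair 3 gave 33. Over all genes tested the block gave 47, 47 and 1234 that fell without pairs 1, 2 and 3, against 323 with all pairs.

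BYSL, which acts in small subunit maturation, had 41.2, 40.1 and 28.3 TPM in CYST and 17.9, 14.7 and 15.9 TPM in MAT + COL. It fell with a Log2FC of -1.23 (SE 0.17, adjusted p = 0.0308). NHP2 had 132, 147 and 120 TPM in CYST and 66.6, 56.8 and 72.9 TPM in MAT + COL, a Log2FC of -1.08 (SE 0.19, adjusted p = 0.0473). DKC1 fell by 1.17 on the log2 scale, EMG1 by 1.20, NOLC1 by 1.04 and NOP58 by 0.96. RIOK2 was at 0.01 (SE 0.17, adjusted p = 0.986).

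Collagen I added to EGF gave 0 called genes among the 40, and 0 among all 12470 genes tested by edgeR (0% called), while 51 genes, or 0.409%, had an unadjusted p under 0.05. DESeq2 also called 0 genes, with 81 at an unadjusted p under 0.05. None of the 40 reached an unadjusted p under 0.05 without the block, and 1 did with it, against 4.96% of all genes tested. The median Log2FC of the 40 was -0.08, with 31 of the 40 below 0, against 50.1% of all genes tested. NOP2, an RNA methyltransferase of the large subunit, had the smallest p, with 69.8, 52.4 and 41.2 TPM in MAT and 48.1, 42.5 and 39.3 TPM in MAT + COL. Its groups overlapped, and the Log2FC of -0.40 (SE 0.19) gave an adjusted p of 1.00, and 0.955 with the block. NHP2 and NOP16 followed, at Log2FC -0.33 (SE 0.25) and -0.19 (SE 0.15). The absence of a call does not show equal levels: 2 SE on either side of the Log2FC reached down to -1.03 for RIOK1 and up to 0.77 for BOP1, and 1 of the 40 intervals passed a Log2FC of 1 in size.

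Outside the 40, 132 further ribosome biogenesis factors were tested between UG-LIKE and CYST, from a list of 137. They had a median Log2FC of -0.45, with 112 below 0, against 49.2% of all genes tested. Of the 132, 5 fell and 0 rose, and 21 fell with the block. Of all genes tested, 0.944% fell, and 5.67% with the block. The 5 were NAT10, an acetyltransferase of ribosomal RNA (Log2FC -1.32), RUVBL1 (-1.21) and RUVBL2 (-0.89), ATPases of snoRNP assembly, and MAK16 (-1.05) and NOC2L (-0.98), large subunit factors. RNA polymerase I subunits and their factors outside the 40, pooled, had a median Log2FC of -0.08, with 0 of 15 that fell without the block. At an unadjusted p under 0.05, 5 of the 15 were lower, against 11.3% of all genes tested. With the block 1 of the 15 fell, against 5.67% of all genes tested. It was the polymerase subunit POLR1G, named after its values were seen (Log2FC -1.07, adjusted p = 0.0219). For 5 of the 15 every UG-LIKE library had a lower TPM than every CYST library, against 11.8% of all genes tested. Among the subunits, also read after their values were seen, POLR1C, POLR1F and POLR1G had separate, lower UG-LIKE groups in log2 CPM. The groups of POLR1D, POLR1E and POLR1H overlapped. The transcription factors UBTF and RRN3 had Log2FC of 0.14 (SE 0.24, adjusted p = 0.799) and -0.27 (SE 0.16, adjusted p = 0.383).

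The proteins of the finished ribosome were measured beside the factors that assemble it. Over 61 cytosolic ribosomal protein genes tested the median Log2FC was -0.14, and 0 fell and 0 rose, with or without the block. In MAT + COL against the same CYST libraries their median Log2FC was -0.39, with 60 of the 61 below 0, against 47.0% of all genes tested. There 0 fell without the block and 1 with it, against 2.58% of all genes tested with the block. Every MAT + COL library lay below every CYST library for 35 of the 61, against 10.3% of all genes tested. In UG-LIKE this held for 7 of the 61, against 11.8%. In MAT + COL against MAT all 61 were below 0, against 50.1% of all genes tested, with a median of -0.24 and 0 called. For DNA replication genes, the MCM helicase and origin licensing list, the median Log2FC was -1.29. Of these 22 genes 9 fell, and 16 with the block, against 0.944% and 5.67% of all genes tested. In MAT + COL against CYST their median was -1.20 and 7 fell, or 11 with the block, against 0.815% and 2.58%. PCNA, the replication clamp, had 289, 267 and 178 TPM in CYST and 95.6, 132 and 91.4 TPM in UG-LIKE and fell with a Log2FC of -1.19 (adjusted p = 0.0414). MKI67, a marker of cycling cells, had 24.0, 11.9 and 9.61 TPM in CYST and 5.77, 4.37 and 10.4 TPM in UG-LIKE, which overlapped (Log2FC -1.12, SE 0.42, adjusted p = 0.181). MYC had 112, 90.5 and 122 TPM in CYST and 110, 90.1 and 93.7 TPM in UG-LIKE, also overlapping (Log2FC -0.18, SE 0.22, adjusted p = 0.707). In a MYC network list with 5 genes tested the median Log2FC was 0.24, and 0 fell and 0 rose. The list pools MYC with related genes, so its median does not measure MYC activity, which was not tested. Its largest Log2FC was 1.62 and its smallest adjusted p was 0.054 (edgeR). With the block 1 rose, beside 592 of all 12074 genes tested. In MAT + COL against CYST 2 of the list rose with the block, beside 335 of all 12509 genes tested. MXD1 of this list, named after its values were seen, had log2 CPM of 4.58, 5.35 and 5.69 in CYST. In UG-LIKE it had 6.85, 7.28 and 6.40. Differences between these lists were not tested.

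**Figure D4:**
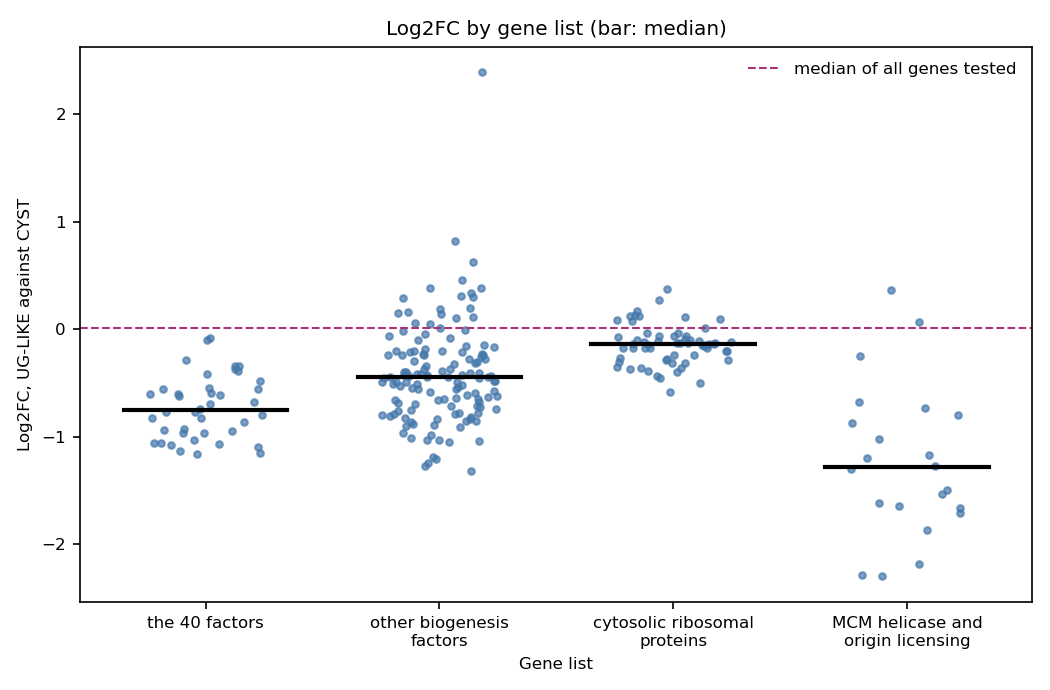
Log2FC of UG-LIKE against CYST for single genes (points) of 4 lists, with each list's median as a bar and the median of all genes tested, 0.01, as a dashed line. The medians are -0.76 for the 40 factors, -0.45 for other biogenesis factors, -0.14 for cytosolic ribosomal proteins and -1.29 for the MCM and licensing list.

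The 40 genes lie on 20 chromosomes, with at most 6 on one of them, chromosome 2. In the coordinates of the count table, on the ARS-UCD2.0 assembly, DKC1 spans chromosome X from 36210990 to 36222905 on the minus strand, NOP56 chromosome 13 from 52519429 to 52524666 on the minus strand, and EMG1 chromosome 5 from 103487268 to 103493335 on the minus strand. LTV1 spans chromosome 9 from 81299554 to 81316562 and NOLC1 chromosome 26 from 22820058 to 22830533, both on the plus strand. Of the 40 models, 11 overlap a gene on the opposite strand, and the strand setting of the counting is not given in the sources used here, so reads of the 2 genes may not be told apart. DKC1 overlaps MPP1 (Log2FC -0.52, adjusted p = 0.137), and EMG1 overlaps LPCAT3 (Log2FC -0.74, adjusted p = 0.111) and PHB2 (Log2FC -0.67, adjusted p = 0.0772). The model of IMP4 spans 244776 bases in the count table against 4977 bases in RefSeq on the same assembly. It also covers CYFIP1, TUBGCP5 and CCDC115, so its counts are uncertain. Other models differ less: NOL6 spans 28430 bases against 12081 in RefSeq, and NOP58 33407 against 23831. RIOK1 is shorter, at 18358 against 23770.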

How the data were processed

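RNA from bovine uterine gland cultures was sequenced from SMART-Seq libraries. After trimming, reads were aligned by the authors to ARS-UCD2.0 in CLC Genomics Workbench, and raw counts per gene were deposited. The deposited TPM values of the same genes were made by the authors too. The annotation release and the strand setting are not given in the sources used here. Samples were grouped by their labels, and 0 per-sample columns were left out. The labels do not say which animal a replicate came from. The paper speaks of individuals for the MAT and MAT + COL libraries, and for CYST the sources used here name none, so the p-values measure the spread between these libraries, which may in part be technical.

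The main test was edgeR 4.0.16 (R 4.3.3). Genes passed filterByExpr (minimum count of 10), TMM set the scale, and glmQLFTest used 6 libraries per comparison, with p-values adjusted over all genes tested by Benjamini-Hochberg. SE is the Log2FC divided by the square root of F. Levels and figures used Python and matplotlib. Same-numbered libraries deviated together from their group means (r = 0.278 to 0.687 over all 3 comparisons), so the replicate number was also fitted as a block. Reads carry no molecular identifiers, so the counts cover amplified reads.

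The 40 genes and the comparison lists were chosen with earlier results of these data known. Named genes were the 2 smallest p and the largest p of each role (all genes where a role has 2 or 3), any other gene called, the 3 smallest p for collagen I, the 5 smallest p among other factors, and MYC, MKI67, PCNA, UBTF and RRN3. Alternatives were DESeq2 1.42.0, the likelihood ratio test, RLE and upper-quartile factors, no filter, all 9 libraries, thinned counts, limma 3.58.1 on log2(TPM + 1), the criteria for DEGs, and leaving out each library. Combinations with the block were added after seeing the data. Promoter sequences were not used here.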

Additional observations from a re-analysis of the deposited data

How the results depend on the processing

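For UG-LIKE against CYST, the number of the 40 that fell (5) was 19 in DESeq2, 15 by likelihood ratio testing and 12 with all 9 libraries in the fit. It was 3 with limma on log2(TPM + 1), 21 with the replicate block, and 0 to 5 with one library left out. Over all genes tested (12074 to 15456), the number that fell (114) was 674, 534, 292, 100 and 685 in the same order. It was 4 to 118 with one library left out. Combined with the block, choices added after seeing the data gave 26 with all 9 libraries, 19 with RLE factors and 19 with thinned counts. They gave 0, 6 and 27 without replicates 1, 2 and 3. Over all genes tested (11440 to 12858) the same choices gave 1016, 654, 656, 14, 323 and 935 that fell. For MAT + COL against CYST the number of the 40 (6) was 26 in DESeq2, 21 by likelihood ratio testing and 16 with all 9 libraries. It was 3 with limma, 12 with the block, and 0 to 7 with one library left out. Over all genes tested (12509 to 15626), the number that fell (102) was 783, 538, 305, 68 and 323 in the same order. It was 3 to 77 with one library left out. The block gave 30 with all 9 libraries, 14 with RLE factors, 15 with thinned counts, and 0, 0 and 33 without replicates 1, 2 and 3. Over all genes tested (11746 to 12858) the same choices gave 962, 351, 386, 47, 47 and 1234 that fell. No gene of the 40 rose or was called for collagen I under any of these settings. Over all genes tested, collagen I also gave 0 calls except with the block and a pair left out. There 1 gene was called without replicate 2 and 46 without replicate 3. The cause of the changes between settings was not tested.

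The sign changed for 3 named genes that the main test did not call. POLR1A (-0.41) moved to 0.12 and 0.079 with the block without replicate 1 or 2, and to -0.82 with the block without replicate 3, where it passed the threshold (edgeR, adjusted p = 0.0422). Without CYST replicate 3 alone it was -0.80 (adjusted p = 0.123). With one library left out, NOP14 ran from -0.58 to 0.081 and RIOK2 from -0.13 to 0.054. Of 189 values of named genes under other settings with no library left out, 153 kept their side of the threshold, 34 passed it newly, 2 no longer passed and 0 changed sign. Of 189 values with a library or pair left out, 141 kept their side, 12 passed newly, 32 no longer passed and 4 changed sign. The median Log2FC of the 40 in UG-LIKE against CYST stayed below 0 under every setting run, from -0.86 to -0.63. Precision is limited by 3 libraries a group and by totals that start at 6568968 counts, and RIOK1, RRP9 and BOP1 rest on the fewest reads of the 40.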
